A study of Rattus norvegicus with 5 samples.

Results

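Metastatic lung nodules were compared with primary tumors of the same cells, with the primaries of both treatments taken as 1 group. All 5 samples of the series entered: 3 lung nodules against 2 primary tumors, chosen by their titles. The tumors grew from C6-L cells, a rat glioma line, in BALB/c nu/nu nude mice 6 weeks of age. The nodules and the irradiated primary were taken 6 weeks after γ-irradiation, and the non-irradiated primary 6 weeks after xenograft. The primary group therefore mixes treatments, so its spread holds irradiation as well as sample variation. No label ties the nodules to different hosts, so every p-value measures the spread between these samples only, which may be technical. The question was which transcripts lay higher, or lower, in every nodule than in both primaries.

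A tumor nodule in the lung holds tumor cells together with vessels, blood and cells of the host organ, and a primary tumor holds host cells of its own surroundings. Matrix metalloproteinases are secreted enzymes that cut collagens and other matrix proteins and are known for their part in tissue invasion. Nude mice lack a thymus and so mature T cells, while their macrophages and natural killer cells remain. RNA of the whole sample was hybridised, so fewer cells of a type and less RNA per cell cannot be told apart. Mouse host RNA can bind these probes, which were designed for rat, and its signal cannot be told from that of the tumor cells.

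Values are log2 signals relative to the 75th percentile of each array, and a difference is the nodule mean minus the primary mean. On each array 69.8 to 73.5% of gene spots were well above background, meaning that the scanner software set that flag, and the number of arrays limits the precision. Correlations over probes were 0.985 to 0.992 between nodules, 0.979 between the primaries and 0.970 to 0.981 between a nodule and a primary. All arrays shared 1 slide, with the nodules in 1 row and the primaries in another, so group and slide row cannot be told apart. Of the glial markers, Gfap and Olig2 were well above background on 0 of 5 arrays. Most others were detected, and 23 of the 27 glial list genes on the array met the detection rule for testing. S100b was well above background on all 5, at 1.26, -0.38 and -0.93 in the nodules and 0.22 and 1.44 in the primaries. The intermediate filament gene Vim was bright on all 5, at 5.48, 6.13 and 6.23 in the nodules and 5.45 and 5.04 in the primaries. Of 19 T and NK cell genes on the array only 5 met the detection rule for testing, Cd3d, Zap70, Nkg7, Gzma and Cd7. Each of these was well above background on all 5 arrays. The others of the list did not meet that rule, and most of them, such as Cd3e, were well above background on 0 of 5.

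Several markers of neighbouring organs were not shared by all nodules. The alveolar type 1 list had every nodule above both primaries for 5 of 11 genes (45.5%) and the airway list for 2 of 10 (20%). Alveolar type 2 genes had 0 of 5, and in each of these lists 0 genes had every nodule below. Over all features the shares were 22.6% above and 18.7% below. The cardiac list had 1 of 13 above and 1 below (7.69% each way). Scgb1a1, the club cell secretory protein of the airway, lay at 4.11 and 3.09 in nodules 1 and 2 and at -5.27 in nodule 3, beside -5.41 and -5.27 in the irradiated and non-irradiated primary. Sftpd, a surfactant protein of the lung, lay at 4.46, 2.27 and -6.00 in the nodules and was not well above background in either primary. Nodule 3 was therefore at the level of the primaries for Scgb1a1 and Sftpd. Sftpc, another surfactant gene, lay at -1.04, -3.65 and -3.62 in the nodules and -2.88 and -1.89 in the primaries, and its groups overlapped. Myh6, a myosin heavy chain of the heart, lay at -2.84, -3.03 and 3.87 in nodules 1, 2 and 3, and at -0.34 and -5.01 in the irradiated and non-irradiated primary. The atrial light chain Myl7 lay at -4.75, -3.22 and 3.37 in the nodules and was well above background in neither primary, at least 23.4-fold higher as a mean but carried by nodule 3. Such bounds compare the brighter group's mean with the dimmer group's, a dim array counting at no less than the lowest signal flagged well above background on it.

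Of 18235 features tested (10769 named genes and 7466 unnamed probes), 23 rose and 63 fell in the nodules (limma, Benjamini-Hochberg adjusted p under 0.05), which is 0.126% and 0.345%, or 0.472% together. The named ones were 18 that rose and 45 that fell. The smallest adjusted p was 0.0207, and 3884 features had an unadjusted p under 0.05. The groups did not overlap for 86 of the 86. Without nodule 1, 2 or 3, limma called 0 features, with 2956, 2329 and 2521 at an unadjusted p under 0.05. In these fits of 2 nodules against 2 primaries the smallest adjusted p was 0.0931, 0.145 and 0.103. The differences of the 63 named genes stayed at 0.894 to 1.10 times their size with all nodules. These 63 were called on the same arrays, and a call favours nodules close together, so this range is a description. Without the irradiated primary 1872 rose and 1563 fell, and without the non-irradiated primary 146 and 380. In those fits the lone primary was assumed to vary like the nodules.

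Non-overlap itself was common. Every nodule lay above both primaries for 4114 features (22.6%) and below both for 3410 (18.7%), together 41.3%. With 3 arrays against 2, an exact two-sided permutation test cannot go below p = 0.2, so non-overlap is a description. Just inside the rule lay Mpeg1 and Foxo4, and just outside it Romo1 and Wtap, each with groups that all but touched. A gap of at least 1 between the nearest arrays of the groups was rarer, at 107 features above (0.587%) and 326 below (1.79%), together 2.37%. Scaling each array to its median moved the split from 4114 and 3410 to 4945 and 2676. The median difference over all features was 0.04. The irradiated and non-irradiated primary differed by a median of 0.37 over all features, and the 3 nodules spanned a median of 0.30.

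**Figure D1:**
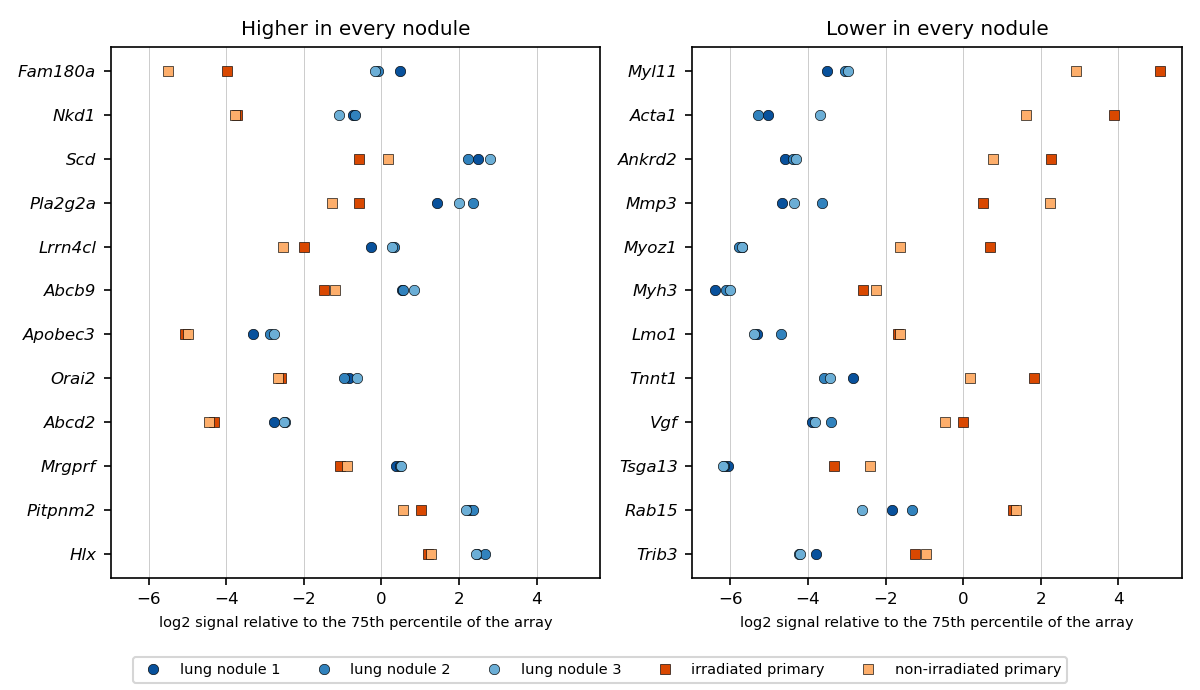
Log2 signal on each of the 5 arrays (x axis, relative to the 75th percentile of the array) for the 12 genes with the largest gap in each direction among called genes well above background on all arrays. Circles are the 3 nodules and squares the 2 primaries. In each row the groups do not overlap, which the choice of genes required.

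Skeletal muscle genes gave the widest gaps. Of 25 muscle markers tested, 7 fell, 0 rose and 18 did not pass. Over all features 0.345% fell and 0.126% rose. Every nodule lay below both primaries for 19 of the 25, and above both for 0, beside 18.7% and 22.6% of all features, with a list median of -3.28. Against the irradiated primary alone the median was -4.27 and against the non-irradiated one -2.61, with the nodules shared by both values.

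Myl11, a regulatory light chain of fast muscle myosin, lay at -3.51, -3.05 and -2.96 in nodules 1, 2 and 3 and at 5.06 and 2.90 in the irradiated and non-irradiated primary. It fell by 7.15 (SE 0.62, 142-fold, limma adjusted p = 0.0329). Acta1, skeletal muscle alpha actin, lay at -5.02, -5.29 and -3.68 in the nodules and 3.89 and 1.61 in the primaries, and fell by 7.42 (SE 0.78, adjusted p = 0.0416). For both genes all nodules were low, the irradiated primary was highest, and the groups did not overlap. Ankrd2, a muscle ankyrin repeat protein, fell by 5.93 (SE 0.44, adjusted p = 0.0238), from 2.25 and 0.78 in the primaries to between -4.58 and -4.31. Myoz1, a Z-disc protein that binds calcineurin, fell by 5.26 (SE 0.65), Tnnt1, slow troponin T, by 4.29 (SE 0.51), and Myh3, the embryonic myosin heavy chain, by 3.75 (SE 0.25). Their adjusted p-values were 0.0488, 0.0467 and 0.0238.

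Some muscle genes were well above background in both primaries and in no nodule, so only a bound can be given. Such genes passed the detection filter through the bright group alone, and their p-values rest in part on values below background, here and below. Mybpc1, a myosin-binding protein, was at least 63.6-fold lower in nodules and Myh2, a fast myosin heavy chain, at least 45.4-fold lower, at adjusted p = 0.0238 and 0.0207. Myh4, the fast IIb heavy chain, was at least 132-fold lower but did not pass (adjusted p = 0.0658), with 2.45 and -1.49 in the irradiated and non-irradiated primary. Myh8, the perinatal heavy chain, lay at -7.24, -6.80 and -3.06 in the nodules and 5.77 and 3.34 in the primaries (difference -10.25, SE 1.40, adjusted p = 0.0597). Nodule 3 stood above the other nodules for Myh8, as it did for the light chain Myl1, at -8.48, -8.24 and -3.68. The groups overlapped for neither gene. Leaving the skeletal and cardiac muscle lists out of the fit, a setting added after the data were seen, left 22 features that rose and 56 that fell.

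**Figure D2:**
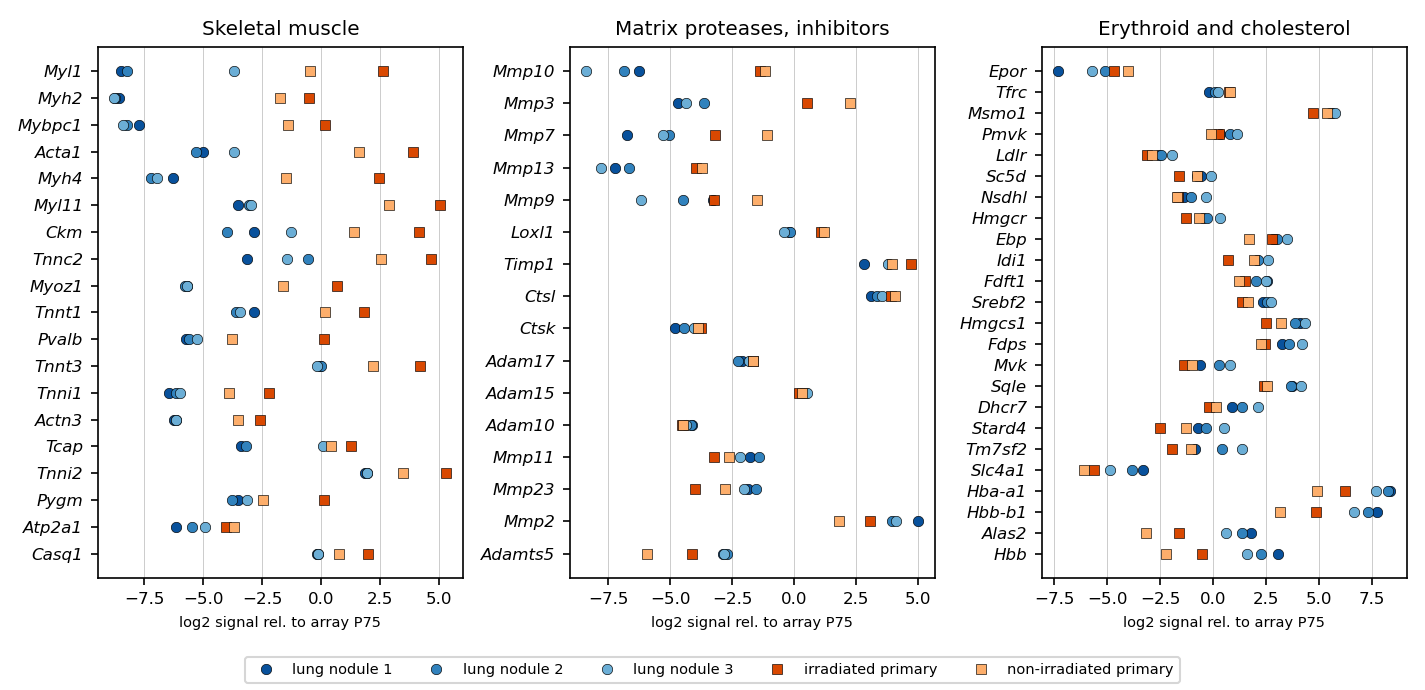
Log2 signal on each array (x axis, relative to the 75th percentile of the array) for the genes of 4 lists whose groups do not overlap, sorted by difference. Circles are the 3 nodules and squares the 2 primaries. The muscle genes lie far lower in nodules, the protease list splits in both directions (Mmp2, Mmp11, Mmp23 and Adamts5 are among those higher), and the cholesterol genes lie higher by less.

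Among 37 matrix proteases and their inhibitors, 4 fell, 0 rose and 33 did not pass, while 0.345% of all features fell and 0.126% rose. Every nodule lay below both primaries for 10 and above both for 6. Those were 27.0% and 16.2%, beside 18.7% and 22.6% of all features (list median -0.06, but 0.12 without the irradiated primary). The 4 that fell were the collagenase Mmp13, the stromelysins Mmp3 and Mmp10, and Loxl1, an enzyme that cross-links elastin. Mmp3 lay at -4.67, -3.64 and -4.34 in nodules 1, 2 and 3 and at 0.51 and 2.24 in the irradiated and non-irradiated primary. It fell by 5.59 (SE 0.57, 48.2-fold, limma adjusted p = 0.0416), and here the non-irradiated primary was the higher. Mmp10 was well above background in no nodule and lay at -1.38 and -1.18 in the primaries, at least 38.7-fold lower (adjusted p = 0.0416). Mmp13, also well above background in no nodule, was at least 6.94-fold lower (adjusted p = 0.0455). Loxl1 fell by 1.40 (SE 0.15, adjusted p = 0.0416), from 1.07 and 1.20 to between -0.41 and -0.18.

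Other members went different ways without passing. Matrilysin, Mmp7, lay at -6.74, -5.06 and -5.29 in nodules and at -3.21 and -1.08 in the primaries (difference -3.55, SE 0.78, limma adjusted p = 0.106). Mmp7 was well above background in 2 of 3 nodules. The gelatinase Mmp2 lay at 5.01, 3.93 and 4.11 in nodules and 3.04 and 1.80 in the primaries (difference 1.93, SE 0.47, adjusted p = 0.115), and the aggrecanase Adamts5 also had every nodule above both primaries. The inhibitor Timp1 lay at 2.80, 3.83 and 3.80 in nodules and 4.73 and 3.95 in the primaries (adjusted p = 0.274).

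The 4 metalloproteinases with every nodule at least 1 below both primaries share a short promoter motif. Shown are the 120 bases before the RefSeq gene start (rat assembly GRCr8), 5′ to 3′ on the gene's strand, with the AP-1 motif TGANTCA in capitals.
Mmp3, chr8:12925161-12925280 (+ strand): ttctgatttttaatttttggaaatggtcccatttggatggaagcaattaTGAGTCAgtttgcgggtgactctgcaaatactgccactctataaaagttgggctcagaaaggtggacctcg
Mmp7, chr8:13132923-13133042 (+ strand): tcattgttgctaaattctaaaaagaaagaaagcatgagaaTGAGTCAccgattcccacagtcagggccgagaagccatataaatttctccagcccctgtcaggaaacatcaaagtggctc
Mmp10, chr8:12974587-12974706 (+ strand): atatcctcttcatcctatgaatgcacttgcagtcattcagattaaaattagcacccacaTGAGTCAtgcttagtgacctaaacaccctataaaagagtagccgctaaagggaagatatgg
Mmp13, chr8:12782709-12782828 (+ strand): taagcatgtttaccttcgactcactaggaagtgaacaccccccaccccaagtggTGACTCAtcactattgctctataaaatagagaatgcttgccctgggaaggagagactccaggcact
The motif began 71, 80, 61 and 66 bases before the starts of Mmp3, Mmp7, Mmp10 and Mmp13. Over the 250 bases before the start, on either strand, it stood in 7 of the 27 tested protease list genes with a promoter entry and in 6.36% of 27457 rat promoters. The other 3 of those 7, Plaur, Mmp12 and Adam19, had groups that overlapped (differences -0.07, -1.37 and 0.55). In all 13 motifs were searched, and this set was chosen to be shown after the matches were seen, so the match is a description. Of the AP-1 subunit genes, Fosl2 fell by 2.03 (SE 0.24, limma adjusted p = 0.0460), from -1.34 and -0.98 in the primaries to between -3.49 and -3.01. Differences of Fos (0.65), Jun (0.38) and Fosl1 (-0.37) did not pass, at adjusted p = 0.427, 0.363 and 0.354. The groups overlapped for the subunits Junb, Jund and Fosb. Whether AP-1 had a part in the protease differences was not tested.

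Muscle promoters are shown for the 3 fallen muscle genes with a CAGCTG E-box, the core bound by MyoD-type factors, in their 250 bases before the start.
Acta1, chr19:68784195-68784444 (- strand): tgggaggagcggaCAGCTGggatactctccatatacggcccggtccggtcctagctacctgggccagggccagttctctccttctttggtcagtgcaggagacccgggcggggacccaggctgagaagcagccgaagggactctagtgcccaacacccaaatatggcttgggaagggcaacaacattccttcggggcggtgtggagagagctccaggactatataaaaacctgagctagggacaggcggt
Myl11, chr1:191260039-191260288 (+ strand): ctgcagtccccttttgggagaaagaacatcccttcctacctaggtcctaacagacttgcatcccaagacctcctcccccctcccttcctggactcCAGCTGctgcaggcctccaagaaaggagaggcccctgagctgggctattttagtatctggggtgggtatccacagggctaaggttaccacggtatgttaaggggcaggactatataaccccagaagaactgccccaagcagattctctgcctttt
Mybpc1, chr7:24903374-24903623 (- strand): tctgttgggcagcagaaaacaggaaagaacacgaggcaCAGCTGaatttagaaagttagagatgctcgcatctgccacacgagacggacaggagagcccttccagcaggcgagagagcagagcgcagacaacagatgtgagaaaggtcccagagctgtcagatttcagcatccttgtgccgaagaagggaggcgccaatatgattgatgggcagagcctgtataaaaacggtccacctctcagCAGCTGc
Capitals mark CAGCTG, which reads alike on both strands. The other 4 muscle list genes that fell, Myh2, Myoz1, Tnnt1 and Actn3, had no match. The motif stood in 9 of the 21 tested muscle genes with a promoter entry and in 11.9% of all promoters. These genes too were picked after the matches were seen. The other motifs included a MEF2 motif, in 1 of 21 muscle promoters and 3.43% of all, and the sterol element TCACNCCAC, in 0 of 17 cholesterol synthesis promoters and 0.976% of all. Absence says only that these letters were not in this window.

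Lipid synthesis genes lay higher in nodules. Of 24 cholesterol synthesis genes tested, every nodule lay above both primaries for 17 and below both for 0, beside 22.6% and 18.7% of all features, with a median difference of 0.87. Yet 0 of the 24 passed the limma test. Sqle, squalene epoxidase, came closest, at 3.74, 3.69 and 4.16 in nodules and 2.40 and 2.53 in the primaries (difference 1.40, SE 0.18, adjusted p = 0.0509). Hmgcs1, which makes the HMG-CoA precursor, lay at 4.13, 3.88 and 4.35 against 2.51 and 3.23 (difference 1.25, adjusted p = 0.0974). Nodule 3 was the highest array for Sqle and Hmgcs1, and the irradiated primary the lowest.

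In the list of fatty acid synthesis genes, 1 of 17 rose, beside 0.126% of all features. For 8 (47.1%) every nodule lay above both primaries, beside 22.6% of all features. The list median was 0.52, but 0.26 without nodule 3 and 0.31 without the irradiated primary. Scd, the desaturase that makes monounsaturated fatty acids, lay at 2.48, 2.23 and 2.79 in nodules and at -0.59 and 0.18 in the irradiated and non-irradiated primary. It rose by 2.71 (SE 0.28, 6.52-fold, limma adjusted p = 0.0416), with groups well apart. Elovl6, a fatty acid elongase, lay at 0.71, 1.53 and 1.92 against -0.21 and -0.33 (adjusted p = 0.105).

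Fam180a, a gene of unsettled function, had the largest gap among genes that rose. Its values were 0.48, -0.08 and -0.16 in nodules 1, 2 and 3 and -3.99 and -5.49 in the primaries, a rise of 4.82 (SE 0.47, 28.2-fold, limma adjusted p = 0.0416). Nkd1, an inhibitor of Wnt signalling and itself a known Wnt target, lay at -0.73, -0.68 and -1.10 in nodules and -3.72 and -3.78 in the primaries. Nkd1 rose by 2.92 (SE 0.21, adjusted p = 0.0238), and the primaries all but coincided. The rest of the Wnt list did not pass: of 32 genes tested 1 rose, beside 0.126% of all features. Every nodule lay above both primaries for 9 and below both for 4. Those were 28.1% and 12.5% of the list, beside 22.6% and 18.7% of all features. Axin2, another known Wnt target, overlapped between the groups (difference 0.36, adjusted p = 0.607). Notum of the same list did not overlap, at -4.24, -3.39 and -3.47 in nodules and -5.50 and -5.44 in the primaries (adjusted p = 0.0844). The ligand Wnt10b also had every nodule above, at 1.45, 1.29 and 1.47 against -0.09 and -3.49 (adjusted p = 0.143). The ligand Wnt10a was well above background in the primaries only, far higher in the irradiated one than in the non-irradiated one (-4.75), and was at least 31.3-fold lower in nodules, without passing (adjusted p = 0.158).

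Further genes that rose included Pla2g2a, a secreted phospholipase (by 2.86, SE 0.34), Abcb9, a lysosomal peptide transporter (1.98, SE 0.18), Apobec3, a cytidine deaminase (2.04, SE 0.25), Orai2, a calcium channel subunit (1.81, SE 0.19), Abcd2, a peroxisomal transporter (1.80, SE 0.21), and the homeobox factor Hlx (1.27, SE 0.14). Limma adjusted p-values lay between 0.0410 for Abcb9 and 0.0467 for Apobec3. Gpm6a, a neuronal membrane glycoprotein, was well above background in every nodule and in no primary, at least 3.72-fold higher (adjusted p = 0.0416). Fam110c was at least 2.44-fold higher in the same way (adjusted p = 0.0279). Of the 23 features that rose, 16 were well above background on all arrays. Of all 23, 12 had primaries within 0.2 of each other, beside 15 of the 63 that fell and 30.2% of all features. For Gpm6a and Fam110c, which are among the 12, neither of these close primaries was well above background. The limma test weighs the spread within groups, so a call itself favours close primaries, and these counts are a description.

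Of 25 integrin and adhesion genes 7 (28%) had every nodule below both primaries and 3 (12%) every nodule above (median -0.19). Of all features 18.7% lay below and 22.6% above in this way. In this list 1 gene fell, beside 0.345% of all features. That gene, Icam1, an adhesion receptor for leukocytes, lay at -1.84, -1.67 and -2.13 in nodules and 0.82 and 0.92 in the irradiated and non-irradiated primary, and fell by 2.75 (SE 0.20, limma adjusted p = 0.0238). Cd1d1, which presents lipid antigens, was well above background in no nodule and lay at -2.95 and -2.22 in the primaries, at least 16.4-fold lower (adjusted p = 0.0207). The primaries stood close together for Icam1 and 0.73 apart for Cd1d1. Sting1, an adaptor for cytosolic DNA sensing, fell by 2.81 (SE 0.27), Tlr3, a receptor for double-stranded RNA, by 2.30 (SE 0.24), and the interferon-inducible Ifi27l2b by 1.89 (SE 0.20), each at adjusted p = 0.0416. Sting1, Tlr3 and Ifi27l2b were named after their values were seen.

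Of 21 genes of class I and class II antigen presentation, every nodule lay below both primaries for 9 (42.9%) and above for 0. The shares of all features were 18.7% and 22.6%. The list median was -0.55 (-0.34 without the non-irradiated primary, -0.94 without the irradiated one), and 0 passed. B2m, the shared light chain of class I, lay at 3.65, 3.38 and 2.99 in nodules and 4.23 and 4.55 in the primaries (difference -1.05, limma adjusted p = 0.102). Class I heavy chain genes such as RT1-A2 and RT1-CE16 are near-identical copies that probes may not separate. Of 26 interferon-stimulated genes 8 (30.8%) had every nodule below and 1 (3.85%) every nodule above, and 0 passed. Isg15, a ubiquitin-like protein, lay at -2.15, -2.48 and -2.51 in nodules but at 2.04 in the irradiated and -1.24 in the non-irradiated primary (adjusted p = 0.169). The macrophage marker Cd68 lay at -3.63, -3.32 and -3.44 against -2.36 and -2.34 (adjusted p = 0.0808). Of the 20 macrophage genes tested 15 were higher and 5 lower as means (median 0.45), and 0 passed. Every nodule lay above for 4 of them and below for 4, or 20% each way, near the shares of all features. Whether cell content had a part in these differences was not tested.

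The stress-response lists differed. Of all features, 22.6% had every nodule above both primaries and 18.7% every nodule below. Heat shock and immediate early genes were near these shares, above for 7 of 31 (22.6%) and below for 5 (16.1%, median 0.13). The p53 targets lay above for 2 of 21 (9.52%) and below for 4 (19.0%, median -0.05). In the hypoxia list, 15 of 27 genes (55.6%) had every nodule below both primaries and 2 (7.41%) every nodule above. The list median was -0.80, and 1 gene fell, beside 0.345% of all features. The hypoxia median was -0.28 without the irradiated primary and -0.47 without nodule 1. The gene that fell, the glucose transporter Slc2a3, lay at -2.33, -2.62 and -3.04 in nodules and -0.27 and -0.46 in the primaries, and fell by 2.30 (SE 0.26, limma adjusted p = 0.0434). Slc2a1, the other main glucose transporter of the list, lay at 1.18, 0.77 and 0.61 against 3.82 and 2.66 (adjusted p = 0.0669), and Car9, a carbonic anhydrase induced by low oxygen, at -1.43, -0.97 and -0.80 against 1.00 and 0.12 (adjusted p = 0.0974). The groups did not overlap for Slc2a1 or Car9. Of 22 NRF2 targets and metallothioneins 13 (59.1%) lay below in every nodule and 1 (4.55%) above, and 0 passed. Their median was -0.67, but -0.39 without the irradiated primary. Mt1, a metal-binding metallothionein, lay at 3.41, 3.95 and 3.84 against 5.09 and 4.99 (adjusted p = 0.0608).

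In the list of ATF4 targets and the unfolded protein response, 1 of 24 genes fell, beside 0.345% of all features. Every nodule lay below both primaries for 11 and above both for 1. Those were 45.8% and 4.17%, beside 18.7% and 22.6% of all features. The list median was -0.33, but -0.20 without the irradiated primary. Trib3, a pseudokinase induced by ATF4, lay at -3.80, -4.24 and -4.20 in nodules and -1.24 and -0.94 in the irradiated and non-irradiated primary. It fell by 2.99 (SE 0.23, 7.92-fold, limma adjusted p = 0.0279). Asns, asparagine synthetase, lay at -0.28, -0.20 and -0.20 against 0.76 and 1.81 (adjusted p = 0.0981). The nodules were tight for Asns and the primaries were not.

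Other genes with wide gaps fell too. Vgf, a secreted neuropeptide precursor, lay at -3.90, -3.40 and -3.81 in nodules and -0.01 and -0.48 in the primaries, and fell by 3.46 (SE 0.25, limma adjusted p = 0.0238). Lmo1, a LIM-domain transcription cofactor, fell by 3.48 (SE 0.28, adjusted p = 0.0279), Rab15, a vesicle traffic GTPase, by 3.23 (SE 0.38, adjusted p = 0.0455), and Ndrg2, a stress-responsive gene, by 2.05 (SE 0.13, adjusted p = 0.0238). Of the 23 glial genes tested, 1 rose (Gpm6a), beside 0.126% of all features. Every nodule lay above both primaries for 6 and below both for 5 (median -0.08). Those 6 and 5 were 26.1% and 21.7%, beside 22.6% and 18.7% of all features. Slc1a3, a glial glutamate transporter, lay at -4.20, -4.73 and -3.38 in nodules and -6.60 and -5.15 in the primaries (adjusted p = 0.169). Nes, the filament gene of neural progenitors, lay at 1.72, 1.33 and 0.46 in nodules and 3.02 and 3.60 in the primaries (adjusted p = 0.0860). Sox10, a glial lineage factor, lay at -4.09, -1.47 and -2.82 against -0.23 and 2.10 (adjusted p = 0.123).

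Part of the blood and vessel genes lay higher in nodules, without passing, and others lay lower. Hbb, a beta globin, lay at 3.06, 2.25 and 1.62 in nodules and -0.50 and -2.22 in the irradiated and non-irradiated primary (difference 3.67, SE 0.62, limma adjusted p = 0.0763). Alas2, which starts heme synthesis in red cells, lay at 1.77, 1.35 and 0.61 against -1.62 and -3.15 (adjusted p = 0.0653). Nodule 1 was highest and the non-irradiated primary lowest for both genes, and globin paralogs may share signal. Of 9 erythroid genes 5 lay above and 2 below in every nodule (55.6% and 22.2%), and 0 passed. Tfrc was among those below, at -0.21, 0.10 and 0.21 against 0.77 and 0.79. Of 13 endothelial genes 7 lay above and 1 below (53.8% and 7.69%), beside 22.6% and 18.7% of all features. As means 9 were higher and 4 lower. Pecam1, an endothelial adhesion protein, lay at 0.99, -0.01 and -0.77 against -1.10 and -1.23 (adjusted p = 0.232). The 1 below was Flt1, at -1.96, -2.51 and -2.86 against -1.75 and -0.41.

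Of 31 cell cycle genes 15 (48.4%) had every nodule above both primaries and 0 every nodule below, beside 22.6% and 18.7% of all features. The list median was 0.50, and 0 passed. Mki67, the proliferation marker, lay at 4.14, 4.19 and 4.41 in nodules and 3.48 and 2.98 in the primaries (difference 1.01, SE 0.19, limma adjusted p = 0.0860). Against the irradiated primary alone the list median was 0.20 and against the non-irradiated one 0.88. In the list of collagens and matrix genes 11 of 32 lay above and 4 below (34.4% and 12.5%), and 0 passed. The oxidative phosphorylation list had 5 of 30 above and 5 below (16.7% each way, median 0.02). The housekeeping list had 1 of 16 above and 4 below (6.25% and 25%, median 0.01). Both medians were under 0 when arrays were scaled over probes detected on all of them.

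**Figure D3:**
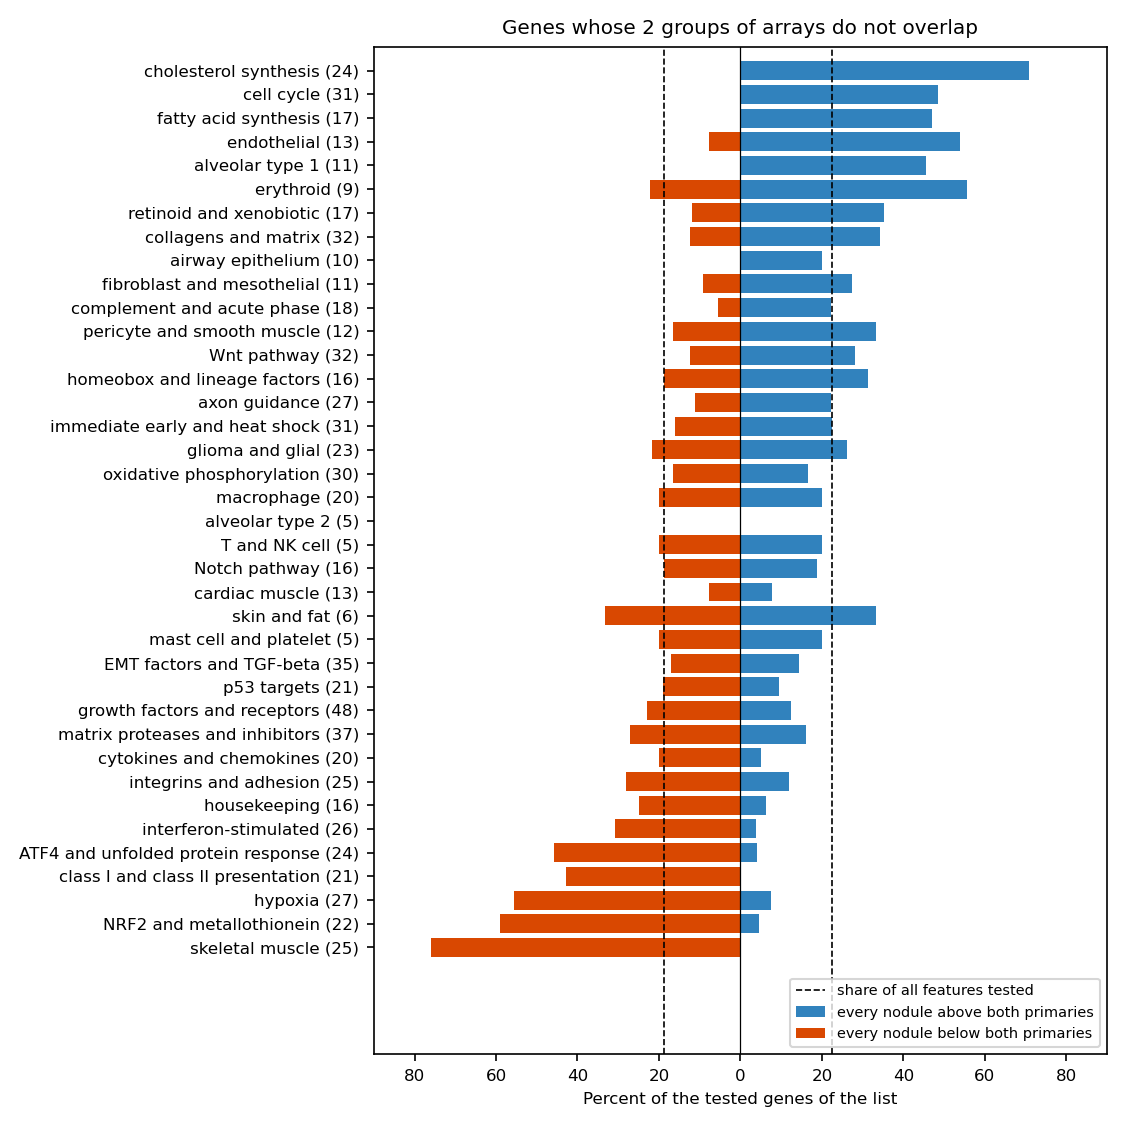
Percent of the tested genes of each list (number in brackets) for which every nodule lay above (blue, right) or below (orange, left) both primaries. Dashed lines mark the shares of all features tested, 22.6% and 18.7%. Cholesterol synthesis and skeletal muscle lie at the ends.

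**Figure D4:**
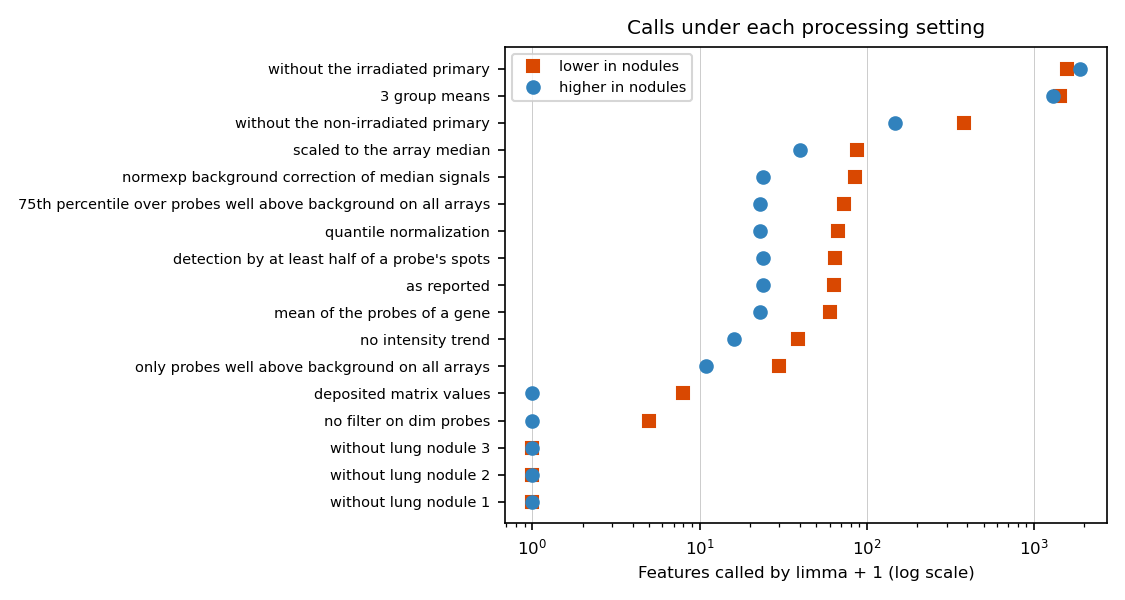
Number of features called by limma plus 1 (x axis, log scale) under each processing setting, with circles for higher and squares for lower in nodules. Leaving out any nodule gave 0 calls in both directions, and leaving out the irradiated primary gave 1872 and 1563.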

How the data were processed

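RNA of 5 samples was hybridised, 1 array each, to 1-colour (Cy3) Agilent rat arrays. Per the file headers, Agilent Feature Extraction 11.0 subtracted the background from the deposited intensity values and detrended them within each array. It also set the deposited flags, which are other values of 0 or 1. As an alternative, log2 values of 18502 probes were taken from the authors' deposited matrix, whose normalization is not given in the sources used here.

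Outlier spots were left out, log2 signals of a probe's spots averaged, and each array scaled to its 75th percentile. A probe counted as well above background on an array when all its spots were flagged so. That rule replaced one asking for at least 0.5 of the spots after first results had been seen, and the earlier rule is given as an alternative. Of 30367 probes 30363 were used and 18354 (60.4%) named through RefSeq accessions. A feature was tested when every array of the nodules, or of the primaries, detected it, with the brightest probe per gene. limma 3.58.1 (R 4.3.3; lmFit, eBayes with an intensity trend, Benjamini-Hochberg) compared the groups. On simulated data it recovered 54% of changes of size 2 and 92% of size 4, with 8 false calls among 18235 features.

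Named genes were the 12 each way with the largest gap among called genes, the 6 each way with the largest bounds, the 6 each way with the smallest p, up to 6 non-overlapping members and any called member of each of 40 gene lists, and fixed controls. Some others are named after their values were seen: Cd3d, Cd3e, Zap70, Nkg7, Mmp11, Mmp23, Olig2, Axin2, Fos, Jun, Fosl1, Junb, Jund, Fosb, Mmp2, Timp1, Myh8, Myl1, Plaur, Mmp12, Adam19, Sting1, Tlr3 and Ifi27l2b. The comparison and lists were chosen with earlier results of these data known. The planned normexp correction used median spot signals. Promoter motifs were searched with Python 3.11.15 in RefSeq sequences of GRCr8, while the array design rests on an older build, so no probe coordinates are given.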

Additional observations from a re-analysis of the deposited data

How the results depend on the processing

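The 23 rises and 63 falls moved with several choices. Median scaling gave 39 and 86, normexp correction 23 and 84, no filter on dim probes 0 and 4, only probes well above background on all arrays 10 and 29, no intensity trend 15 and 38, and the deposited matrix 0 and 7. Group means for 3 groups, where the spread comes from nodules alone, gave 1298 and 1438. Leaving out 1 array at a time gave 0 to 1872 rises and 0 to 1563 falls. Non-overlap counts ranged over the same omissions from 4636 to 7392 above and 3711 to 6537 below. Both counts were larger without the irradiated primary (7392 and 6537) or the non-irradiated one (6628 and 5605). Without 1 nodule, which leaves 2 arrays against 2, limma called 0 of the 63 named genes, whose differences were 0.894 to 1.10 times those reported. That range is no test, since the genes were called with all nodules present. With no filter 60 of the 63 were lost. The causes were not tested. Detection by at least 0.5 of the spots, added after seeing the data, gave 23 and 64.

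Signs turned for the median of all features with no filter (-0.0536), the homeobox list with that detection rule (-0.0405), p53 targets without the irradiated primary (0.56, against -0.31 without the other) and macrophage markers without the non-irradiated one (-0.11, against 0.91). Small medians also turned, among them proteases (0.12) and cytokines (0.12) without the irradiated primary. Heat shock and immediate early genes turned without the non-irradiated primary (-0.07). Cardiac muscle turned without nodule 3 (-0.38), and alveolar type 2 genes without nodule 2 (0.05) or nodule 3 (0.03). Oxidative phosphorylation (-0.02) and housekeeping (-0.03) turned with the percentile over detected probes. Housekeeping also turned without the non-irradiated primary (-0.03), nodule 1 (-0.0041) or nodule 2 (-0.01). Sftpc turned without nodule 2 (0.05), nodule 3 (0.03) and the non-irradiated primary (0.11), ranging from -1.25 (without nodule 1) to 0.11. Myh6 turned without nodule 3 (-0.26) and the non-irradiated primary (-0.33), ranging from -0.33 to 4.34 (without the irradiated primary). No paired analysis was possible because the labels number the nodules but not the primaries. Dim probes limit folds to bounds.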

Other observations

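The bright genes Tcf15, Iba57 and Spag7, named after their values were seen, had like profiles. Tcf15, a mesoderm transcription factor, lay at 4.07, 4.03 and 3.92 in nodules and 6.81 and 5.89 in the irradiated and non-irradiated primary, and fell by 2.35 (SE 0.27, limma adjusted p = 0.0455). Iba57, a mitochondrial iron-sulfur cluster protein, fell by 2.18 (SE 0.25, adjusted p = 0.0455) and Spag7 by 2.10 (SE 0.23, adjusted p = 0.0434). Complement C3 was higher in every nodule, at 2.31, 2.43 and 1.62 against -0.38 and -1.49, without passing (adjusted p = 0.0529). The growth factor Igf2 lay at -3.70, -3.52 and -2.11 in nodules against 0.51 and -0.02 (adjusted p = 0.0658). Features well above background in all nodules and no primary numbered 467, against 78 the other way, beside a higher lowest detected level in the primaries (-6.03 and -6.12) than in the nodules (-6.77 to -6.46).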
